A study of Mus musculus with 8 samples.

Results

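Pax2, Pitx1, Tbx3 and Osr2 encode 4 transcription factors of embryonic development and are 4 of the 45777 genes in a deposited read count table from mouse colonic organoids, which are cultures of colon epithelium grown in Matrigel. They were chosen by name because their counts were higher in KO than in WT libraries and were absent or low in WT libraries. The KO and WT counts therefore chose these genes, and their values in the 2 genotypes are given as a description, with no test. RNA sequencing was run on 8 libraries, 4 KO and 4 WT. The KO organoids came from Reg3aΔIEC mice, in which the Villin promoter drives Cre recombinase in intestinal epithelium and Cre acts on a floxed Reg3a allele. The WT organoids came from Reg3a fl/fl mice, the floxed line before that cross. Both genotypes thus derive from an allele with loxP sites around exons 2 to 4 of Reg3a, a gene for a secreted antimicrobial lectin. All organoids were from the colon of male mice aged 9 weeks, were kept for at most 15 passages and were collected 3 days after a passage without treatment. The labels give the replication in 2 ways, as 1 mouse per genotype plated in 4 wells and as 3 mice per genotype in technical triplicate. The p-values below thus rest on the spread between libraries, part or all of which may be technical, and the genotype, the Cre transgene, the donor mouse and the organoid line cannot be told apart.

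Developmental transcription factors bind DNA and set which genes a tissue uses while organs form, and most are silent in adult tissues where they have no role. Pax2 is a paired-box factor of the kidney, urogenital tract, ear and optic stalk, Pitx1 a bicoid-type homeodomain factor of the hindlimb and pituitary, Tbx3 a T-box repressor of limb, mammary gland and heart, and Osr2 an odd-skipped zinc finger factor of the palate and joints. The identity of adult colon epithelium is kept by other factors, among them Cdx2 and Hnf4a. In bulk RNA, fewer cells that carry a transcript and less transcript per cell cannot be told apart.

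Library totals ran from 42370611 to 48533942 counts in KO and from 37182098 to 49256171 counts in WT. Reg3a was at 0 counts in all 8 libraries, so the targeted gene could not check the genotype labels. KO and WT separated along the first principal component (32.4% of the variance). All 13 of 13 colonic epithelial markers passed the low-count filter, among them Cdx2 at 169.7 ± 3.59 TPM in KO and 132 ± 5.43 TPM in WT (SD, n = 4 each). KO replicate 6 stood apart by 28 genes with at least 20 counts there and at most 2 in every other library, together 6282 counts or 0.0129% of that library. They included Sftpc (1090 counts), Scgb1a1 (434 counts) and Sftpb (150 counts), genes of lung and airway epithelium. None of the 4 factors was highest in that library. These limits were chosen after the values were seen, and values without KO replicate 6 are given where that library could matter.

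Pax2 (gene ID 18504; chromosome 19, positions 44746601 to 44838269, GRCm38) had reads in every KO library and none in WT. It had 58, 82, 86 and 52 counts in KO replicates 5, 6, 7 and 8, against 0 counts in each of WT replicates 13, 14, 15 and 16. Every KO library was thus far above the limit of 3 counts that a count of 0 allows, and no WT library reached a single read. The KO level was 1.50 ± 0.315 CPM (counts scaled to library size; SD, n = 4), which was at least 21.7-fold higher than the 3-count limit per WT library, 0.0692 CPM on average. All 4 KO counts of Pax2 were even, but over the 4 genes only 12 of 25 nonzero counts were. Each library had more genes with 2 counts (673 to 772) than with 1 (548 to 622), so each pair of mates may have given 2 counts. With a limit of 6 counts for that case, Pax2 was at least 10.8-fold higher in KO. These limits and all counting intervals below cover counting error only. Without KO replicate 6 the KO level was 1.44 ± 0.352 CPM (SD, n = 3). The 250 bases before 2 of the annotated Pax2 starts are printed here because these are windows of a gene with reads in KO libraries only. These sequences are RefSeq, build GRCm38.p6 on the plus strand, with CG dinucleotides in capitals.
Pax2 start 1, chr19:44746351-44746600: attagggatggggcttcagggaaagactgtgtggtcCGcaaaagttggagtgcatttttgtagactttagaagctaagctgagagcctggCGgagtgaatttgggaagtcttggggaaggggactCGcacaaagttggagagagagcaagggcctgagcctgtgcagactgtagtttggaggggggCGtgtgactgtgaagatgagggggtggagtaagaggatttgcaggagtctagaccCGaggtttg
Pax2 start 2, chr19:44755502-44755751: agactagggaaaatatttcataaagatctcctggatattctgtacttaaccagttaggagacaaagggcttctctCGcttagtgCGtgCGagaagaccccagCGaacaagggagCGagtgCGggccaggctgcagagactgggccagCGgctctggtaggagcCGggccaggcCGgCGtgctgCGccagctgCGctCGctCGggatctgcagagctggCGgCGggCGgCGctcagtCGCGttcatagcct
The window of start 1 holds 5 CG dinucleotides at 52.8% GC and that of start 2 holds 20 at 60.8% GC, where the median of 32851 windows of this length from 27025 genes is 6 CG at 52.4% GC. Fewer CG dinucleotides than in the Pax2 window were found in 44.4% of all windows for start 1 and in 82.1% for start 2. The motifs searched, on both strands, were TATAAA (the TATA box), GGGCGG (the GC box), TAATCC (a bicoid-type homeodomain site, in 6.25% of all windows), GGTGTGA (a T-box site, in 3.33%), CTTTGA (a TCF core, in 13.8%), TTTATG (a Cdx-type site) and CACGTG (an E-box, in 6.02%). Start 2 had GGGCGG 28 bases before the start, on the printed strand. It also had TTTATG on the opposite strand, printed above as its reverse complement cataaa, 232 bases before the start. These matches did not overlap, and start 1 had no match. Start 3, whose window overlaps an annotated UTR and is not printed, has 25 CG dinucleotides at 72.8% GC, more CG than 89.3% of all windows, and GGGCGG 64 bases before the start. GGGCGG is in 32.7%, TTTATG in 10.8% and TATAAA in 12.4% of all windows. A missing match says only that these letters are not in this window. Gene counts do not show which start was used, and Pax2 was the only 1 of the 4 genes with a window in the RefSeq table.

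Pitx1 (gene ID 18740; chromosome 13, positions 55825044 to 55836190) had 65, 36, 31 and 64 counts in KO replicates 5, 6, 7 and 8, against 0, 0, 0 and 5 counts in WT replicates 13, 14, 15 and 16. The groups did not overlap, and 3 of the 4 WT libraries had no read. The 5 counts in WT replicate 16 are observed reads, and the limits of 3 and 6 counts apply only to libraries with a count of 0. In CPM the KO mean was 1.08 ± 0.444, against 0.0337 ± 0.0675 in WT (SD, n = 4 each), and the lowest KO library was 4.85-fold above the highest WT library. Summed over libraries, Pitx1 was 37.3-fold higher in KO, with an exact 95% counting interval of 15.7 to 116. That interval takes every count as a separate read and leaves out the spread between libraries. It is too narrow if both mates of a pair were counted. Without KO replicate 6 the KO mean was 1.19 ± 0.471 CPM (SD, n = 3).

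Tbx3 (gene ID 21386; chromosome 5, positions 119670534 to 119684724) was present in every library. It had 188, 137, 147 and 143 counts in KO replicates 5, 6, 7 and 8, against 24, 36, 29 and 21 counts in WT replicates 13, 14, 15 and 16. KO replicate 5 was the highest, the other KO libraries lay close together, and every WT library had at least 21 counts. Tbx3 averaged 3.36 ± 0.733 CPM in KO, against 0.622 ± 0.0737 CPM in WT (SD, n = 4 each), a 5.41-fold difference or 2.42 on the log2 scale. The lowest KO library was 3.89-fold above the highest WT library. Without KO replicate 6 the log2 fold change was 2.49.

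Osr2 (gene ID 107587; chromosome 15, positions 35296098 to 35303305) was the most abundant of the 4 genes in both genotypes. It had 295, 253, 313 and 337 counts in KO replicates 5, 6, 7 and 8, against 49, 116, 42 and 12 counts in WT replicates 13, 14, 15 and 16. The KO libraries lay close together, while WT replicate 14 was high and WT replicate 16 low. Osr2 averaged 6.51 ± 0.903 CPM in KO, against 1.18 ± 0.850 CPM in WT (SD, n = 4 each), a 5.50-fold difference or 2.41 on the log2 scale. The lowest KO library was 2.23-fold above WT replicate 14. The log2 fold change was 3.00 without WT replicate 14, 2.13 without WT replicate 16 and 2.51 without KO replicate 6.

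**Figure D1:**
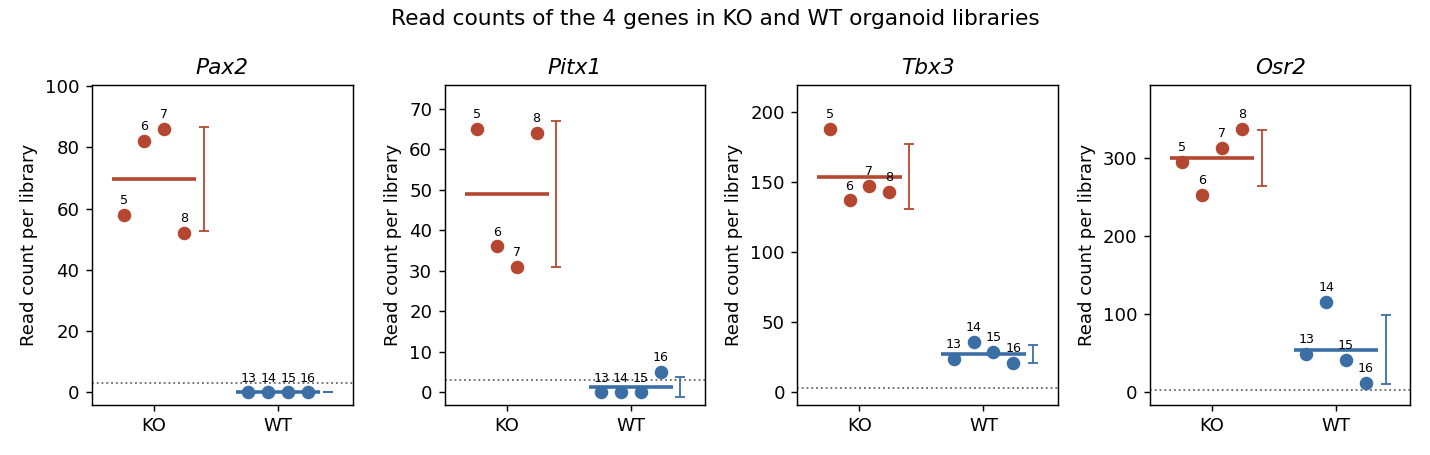
Read counts of Pax2, Pitx1, Tbx3 and Osr2 per library (vertical axes, counts on linear scales that differ between panels) in KO (left) and WT (right), with replicate numbers beside the points, the group mean as a line, the SD as a bar and the limit of 3 counts as a dotted line. All 4 WT points of Pax2 are at 0, 3 of 4 WT points of Pitx1 are at 0, and the WT points of Osr2 spread from 12 to 116 counts.

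Levels of different genes were compared in TPM, which the authors scaled for transcript length. In KO the order was Osr2 with 7.39 ± 1.09 TPM, Tbx3 with 1.42 ± 0.327 TPM, Pitx1 with 0.873 ± 0.368 TPM and Pax2 with 0.746 ± 0.160 TPM (SD, n = 4 each). Osr2 was above the others in every KO library, while Tbx3 and Pitx1 overlapped (1.19 to 1.90 TPM and 0.531 to 1.24 TPM), as did Pitx1 and Pax2 (0.558 to 0.913 TPM). In WT the order was Osr2 with 1.32 ± 0.964 TPM, Tbx3 with 0.241 ± 0.0413 TPM and Pitx1, listed at 0 in 3 libraries and at 0.0853 TPM in WT replicate 16, with Pax2 listed at 0. Among the 14945 genes that passed the low-count filter, the KO TPM of Pax2, Pitx1, Tbx3 and Osr2 stood at the 12.3, 13.7, 18.0 and 38.0 percentile. All 4 passed that filter, Pax2 and Pitx1 through their KO counts. They were thus in the lower part of the expressed range even in KO, far under the colon factor Cdx2 given above.

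The 4 genes did not vary alike within KO. Pax2 was high in KO replicates 6 and 7, Pitx1 in replicates 5 and 8, Tbx3 in replicate 5 and Osr2 in replicate 8. The highest KO library exceeded the lowest 2.35-fold for Pitx1 and 1.62-fold for Pax2. Spread beyond counting error was described by chi-square per degree of freedom over the KO libraries, beside genes of similar counts. It was 3.13 for Pax2 (1049 similar genes, median 1.67, 95th percentile 6.78), 6.93 for Tbx3 (median 1.98, 95th percentile 7.48) and 6.02 for Osr2 (median 2.15, 95th percentile 8.31). Pitx1, at 8.39, lay above the 95th percentile of its 1073 similar genes, 6.69. In WT, Osr2 stood at 26.3, above the 95th percentile of 8.14, whereas Tbx3 stood at 0.433, under the median of 1.83.

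**Figure D2:**
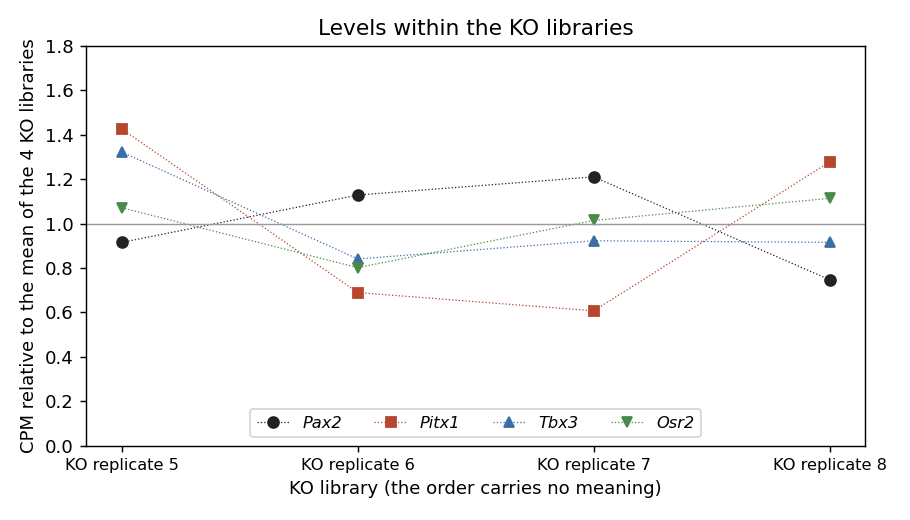
CPM of Pax2, Pitx1, Tbx3 and Osr2 in each KO library, divided by the gene's mean over the 4 KO libraries (vertical axis, ratio, with 1 as the mean), against the KO library (horizontal axis, whose order carries no meaning; dotted lines only join 1 gene's points). Pitx1 is highest in replicates 5 and 8, where Pax2 is lowest.

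Other genes were tested with edgeR's quasi-likelihood test, adjusted over all 14945 tested genes by the Benjamini-Hochberg method, at a threshold of 0.05. In KO, 1140 genes (7.63%) were higher and 1234 (8.26%) lower, and the median log2 fold change was -0.0012. An unadjusted p under 0.05 was reached by 28.7%. By other rules used below or in the closing section, the higher and lower shares were 9.3% and 9.62% with DESeq2, 7.49% and 7.82% with limma-voom, 4.16% and 4.17% without the low-count filter (8.33% in either direction), 9.02% and 9.78% with 1 CPM required in 4 libraries, and 3.76% and 3.99% at a threshold of 0.01. Without KO replicate 5 the higher count was 757, without KO replicate 8 the counts were 696 higher and 724 lower, and without WT replicate 13 the lower count was 808. KO and WT did not overlap in 1481 tested genes (9.91%) with KO higher and in 1533 (10.3%) with KO lower, and the 4 factors are among those with KO higher by choice.

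The paralogs of the 4 genes were mostly silent. Of 26 genes of the Pax, Pitx, Tbx and Osr families, 18 had at most 5 counts in every library and 5 were tested. Of those 5, 1 was higher in KO and 0 lower, and the median log2 fold change was 0.08, beside 7.63% higher and 8.26% lower over all tested genes. Pax8, the paralog of Pax2 in kidney and thyroid, averaged 21.5 ± 0.840 CPM in KO, against 18.5 ± 1.55 CPM in WT (SD, n = 4 each; log2 fold change 0.22 with an SE of 0.07, adjusted p by edgeR = 0.0398). That call ended without any 1 of KO replicates 5 to 8 or WT replicates 14 and 15 (edgeR adjusted p = 0.0503 to 0.110). The other 4 tested paralogs, Tbx6, Tbx15, Eomes and Mga, were not called, with log2 fold changes of -0.11 to 0.31. Of the 21 untested paralogs, 14 had 0 counts in all 8 libraries and the highest single count was 28. Osr1, the close relative of Osr2, was among those at 0, and is named after its values were seen.

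Genes that work with Pax2 in kidney and ear were examined next. Of 23 partner genes 10 were tested, of which 2 (20%) were higher and 1 (10%) lower in KO, beside 7.63% and 8.26% over all tested genes, with a median log2 fold change of 0.09. Dach1, a co-factor in the Pax and Eya network, had 120, 94, 103 and 137 counts in KO, against 33, 52, 52 and 32 counts in WT. The groups did not overlap, and Dach1 averaged 2.47 ± 0.495 CPM in KO, against 0.953 ± 0.150 CPM in WT (SD, n = 4 each; log2 fold change 1.36 with an SE of 0.19, adjusted p by edgeR = 3.4e-04). Pax8 was the other higher gene. Eya2, a phosphatase and transcriptional co-activator, averaged 3.69 ± 0.403 CPM in KO, against 5.06 ± 0.940 CPM in WT (log2 fold change -0.45 with an SE of 0.14, adjusted p by edgeR = 0.0406). The Eya2 call ended without any 1 of KO replicates 5 to 8 or WT replicates 14 and 16 (edgeR adjusted p = 0.0559 to 0.122). Ret, a receptor kinase that Pax2 activates in the kidney, had 45, 38, 40 and 32 counts in KO, against 53, 29, 38 and 40 counts in WT, and was not called (edgeR adjusted p = 0.787).

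Few genes of limb, palate and mesenchymal patterning, the setting of Pitx1, Tbx3 and Osr2, were expressed. Of 28 such genes 5 were tested, 1 (20%) was higher and 0 lower in KO, beside 7.63% and 8.26% over all tested genes, the median log2 fold change was 0.14, and 14 had 0 counts in all libraries. The higher gene was Bmp2, a secreted signal, at 86.9 ± 3.55 CPM in KO, against 78.6 ± 2.20 CPM in WT (SD, n = 4 each; log2 fold change 0.14 with an SE of 0.04, adjusted p by edgeR = 0.0417). The Bmp2 call ended without any 1 of KO replicates 5 to 8 or WT replicates 13, 14 and 16 (edgeR adjusted p = 0.0548 to 0.124). Isl1, a LIM homeodomain factor of hindlimb and endocrine cells, was too low to test and is named after its values were seen. It had 0, 0, 6 and 5 counts in KO, against 23, 9, 28 and 20 counts in WT, so the groups did not overlap. Isl1 passed the low-count filter and was called lower by edgeR without any 1 of KO replicates 5 to 8 or WT replicate 14 (adjusted p = 0.0035 to 0.0290). It passed that filter only through its WT counts, where it is high, so these p-values are a description.

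The 9 genes described as targets of these factors in other tissues were examined next. Of these, 4 were tested, 1 (25%) was higher and 0 lower in KO, beside 7.63% and 8.26% over all tested genes, with a median log2 fold change of 0.03. Cdkn2a encodes cell-cycle inhibitors that Tbx3 is described as repressing. It had 169, 155, 108 and 138 counts in KO, against 63, 54, 70 and 35 counts in WT, without overlap. Cdkn2a averaged 3.11 ± 0.708 CPM in KO, against 1.26 ± 0.285 CPM in WT (SD, n = 4 each; log2 fold change 1.30 with an SE of 0.20, adjusted p by edgeR = 7.2e-04). Cdkn2a and Tbx3 were thus both higher in KO. Cdkn1a and Cdh1, both described as repressed by Tbx3, were not called (log2 fold changes 0.09 and -0.03), but Cdkn1a was called higher without WT replicate 16 (edgeR adjusted p = 0.0445).

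**Figure D3:**
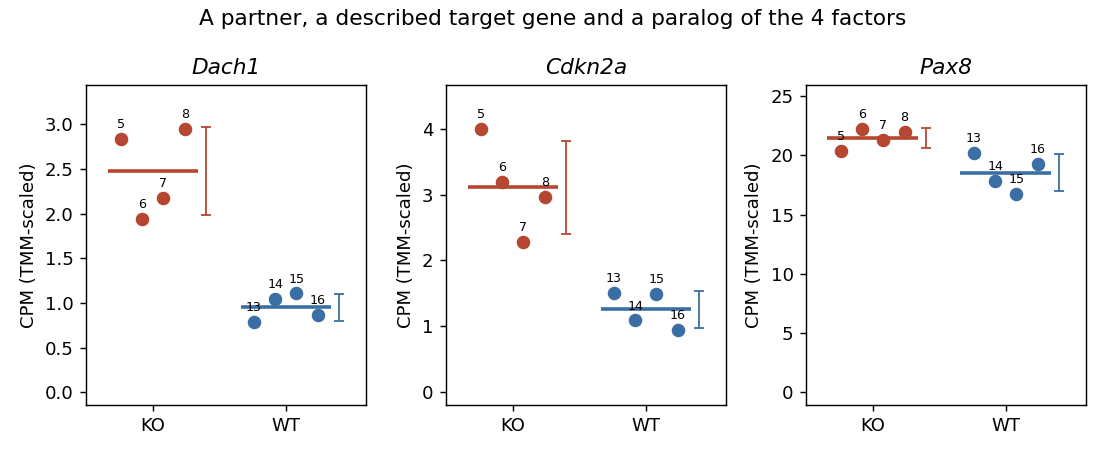
CPM per library (vertical axes, linear scales that differ between panels) of Dach1, Cdkn2a and Pax8 in KO (left) and WT (right), with replicate numbers, the group mean as a line and the SD as a bar. KO and WT points do not overlap in any panel, and the gap is narrow for Pax8.

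Polycomb complexes place and read histone marks on silent developmental genes. All 27 Polycomb genes were tested, and 5 (18.5%) were lower and 0 higher in KO, with a median log2 fold change of -0.09, beside 8.26% lower over all tested genes. Phf19, a subunit that directs the complex to chromatin, averaged 8.17 ± 0.519 CPM in KO, against 10.9 ± 0.652 CPM in WT (SD, n = 4 each; log2 fold change -0.42 with an SE of 0.08, adjusted p by edgeR = 0.0025). Ezh2, the histone H3 methyltransferase, averaged 48.3 ± 1.63 CPM in KO, against 58.2 ± 3.24 CPM in WT (log2 fold change -0.27 with an SE of 0.05, adjusted p by edgeR = 0.0028). Cbx6, a reader of the mark, averaged 23.3 ± 1.57 CPM in KO, against 29.1 ± 1.81 CPM in WT (log2 fold change -0.32 with an SE of 0.06, adjusted p by edgeR = 0.0035). The count of lower genes was 3 without any 1 of KO replicates 5, 7 and 8 or WT replicate 13, and Pcgf3 was called higher without WT replicate 15 (edgeR adjusted p = 0.0185). The part of the Polycomb genes in the levels of Pax2, Pitx1, Tbx3 and Osr2 was not tested.

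The share of other developmental transcription factors called higher was near that of all tested genes. Beyond the 4 genes, 239 genes of the same kind of family were examined, of which 122 had 0 counts in all libraries and 58 were tested. Of those, 3 (5.17%) were higher and 8 (13.8%) lower in KO, beside 7.63% and 8.26% over all tested genes, and the median log2 fold change was -0.04. DESeq2 called 5 of them higher. Sox6, named after its values were seen, had a log2 fold change of 1.84 and was not called (edgeR adjusted p = 0.0544), with 14, 33, 44 and 35 counts in KO, against 17, 0, 3 and 12 counts in WT. The genes of this list called higher changed little. Sox21 averaged 32.3 ± 1.34 CPM in KO, against 26.8 ± 0.874 CPM in WT (SD, n = 4 each; log2 fold change 0.27 with an SE of 0.05, adjusted p by edgeR = 0.0029). Sox13 rose by 0.19 on the log2 scale (edgeR adjusted p = 0.0407), and Pax8 is given above. The Sox13 call ended without any 1 of KO replicates 5 to 8 or WT replicates 13, 14 and 15 (edgeR adjusted p = 0.0677 to 0.123).

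Lower in KO were the endoderm factors Foxa2 and Foxa3, the forkhead factor Foxd2, Foxm1, a factor of dividing cells, and the HMG-box factor Sox4, with log2 fold changes of -0.37, -0.30, -0.35, -0.29 and -0.27 in that order (edgeR adjusted p = 0.0051 to 0.0148). The Foxa3 call ended without any 1 of KO replicates 5, 7 and 8 and WT replicate 13 (edgeR adjusted p = 0.0526 to 0.0559), and the Sox4 call without KO replicate 7 (0.0513) or WT replicate 13 (0.0509). The count of higher factors was 1 without any 1 of KO replicates 5 to 8 and WT replicate 14. The count of lower factors was 4 without KO replicate 7 and 5 without any 1 of KO replicates 5 and 8 and WT replicates 13 and 16.

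**Figure D4:**
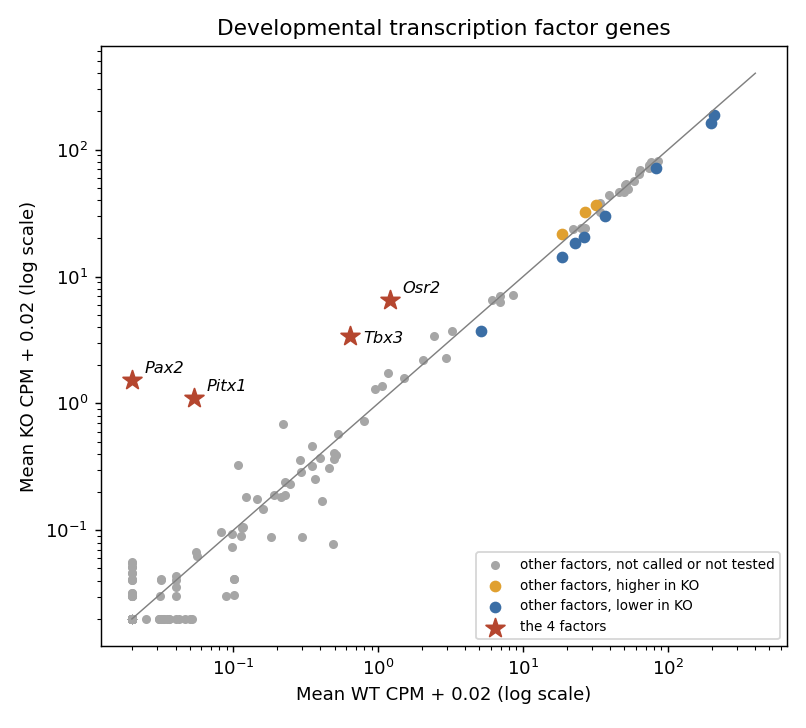
Mean KO CPM plus 0.02 (vertical axis, log scale) against mean WT CPM plus 0.02 (horizontal axis, log scale) of Pax2, Pitx1, Tbx3 and Osr2, drawn as stars, and of 239 other developmental transcription factor genes, with those called higher or lower in KO in colour and the rest in grey; the line marks equal levels. The 4 genes lie well above the line, while the other called factors of this list, which leaves out Hox genes, Dach1 and Tcf24, lie close to it.

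Genes with reads in every KO library and almost none in WT were listed by limits set with the counts of the 4 genes known. At least 30 counts in every KO library and at most 5 in every WT library were found for 3 of the 45772 genes examined for this (0.00655%), namely Pax2, Pitx1 and the pseudogene Rab5a-ps. These limits lie just at the 31 and 5 counts of Pitx1, and Pax2 and Pitx1 meet them by choice, so nothing is read from the count. The reverse limits were met by 0 genes. With at least 20 and at most 6 counts there were 4 genes (0.00874%), St3gal5 being the addition, and with at least 60 and at most 10 counts there were 0, again with 0 in reverse in both cases. The other limits were also chosen after the values were seen. St3gal5, a sialyltransferase of ganglioside synthesis, had 33, 26, 27 and 38 counts in KO, against 0 in each WT library, and was at least 9.78-fold higher in KO over 3 counts per library or at least 4.89-fold over 6. Rab5a-ps had 37, 41, 49 and 48 counts in KO, against 0, 1, 2 and 0 counts in WT, and reads may be shared with its parent gene.

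The genes nearest to each factor, leaving out the other factors, were taken by the root mean square difference of centred log2 CPM over the 8 libraries. This measure takes in the KO to WT difference that chose the 4 genes and is a description. Pax2 and Pitx1 had the same 3 nearest genes although they were high in different KO libraries. Nearest to Pax2 were Rab5a-ps (0.618), St3gal5 (0.655) and Xlr3a (0.978), where the median over all tested genes was 2.56. St3gal5 (0.649), Rab5a-ps (0.893) and Xlr3a (0.997) were also nearest to Pitx1. Pax2 and Pitx1 differed from each other by 0.965, less than either differed from Xlr3a. Xlr3a, of the X-linked Xlr family whose near-identical copies may share reads, averaged 3.17 ± 0.918 CPM in KO, against 0.276 ± 0.0446 CPM in WT (SD, n = 4 each). Nearest to Tbx3 were the pseudogene Gm6475 (0.306), Ugt8a (0.323), a galactosyltransferase of myelin lipids, and Rims2 (0.329), a scaffold protein of vesicle release. Their log2 fold changes were 2.65, 2.53 and 1.94. Nearest to Osr2 were Fgl2 (0.557), a secreted fibrinogen-like protein, Rnf150 (0.582), a membrane RING finger protein, and Tcf24 (0.592), a basic helix-loop-helix factor, with log2 fold changes of 2.28, 1.84 and 1.88. Among the 4 factors the closest pair was Tbx3 and Osr2 (0.655), and the farthest was Pitx1 and Osr2 (1.46).

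The 4 genes lie on 4 chromosomes, and the tested genes beside them were examined for calls. Within 500 kb there were 107 other genes, of which 37 were tested and 0 were called by edgeR, beside 15.9% over all tested genes, 1 by DESeq2 and 0 by limma-voom. Of the tested genes 15 were near Pax2, 19 near Pitx1, 1 near Tbx3 and 2 near Osr2. The 1 near Tbx3, Rbm19, lay 432 kb away, so the calls say little about the surroundings of Tbx3 and Osr2. An unadjusted edgeR p under 0.05 was reached by 5 (13.5%, beside 28.7% over all tested genes), all near Pitx1 (Grk6, Dbn1, Pdlim7, Ddx41 and Txndc15, named after their values were seen). The DESeq2 call was Pdlim7, lower in KO (adjusted p = 0.0323), against an edgeR adjusted p of 0.0528. Pdlim7 was also called by edgeR without KO replicate 6 (adjusted p = 0.0335) and without WT replicate 15 (0.0068), where Tmed9 was lower (0.0297) and Ddx46 higher (0.0098) as well. Log2 fold changes ran from -0.53 to 0.43 with a median of 0.01. The nearest tested genes were Hif1an (0.04) and Slf2 (-0.05) beside Pax2, Pcbd2 (0.15) and Macroh2a1 (0.08) beside Pitx1, Rbm19 (0.10) beside Tbx3, and Stk3 (0.09) and Vps13b (0.06) beside Osr2, each in log2 fold change with an edgeR adjusted p of 0.190 to 0.743. Tbx5, 112 kb from Tbx3 and a paralog of it, had 0 counts in all libraries. The annotated genes that overlap Pax2 and Tbx3, Mir6405, 1700039E22Rik and Tbx3os1, also had 0 counts. Gm35610, a long non-coding RNA that ends 3.89 kb before Pax2, had 4, 12, 11 and 7 counts in KO, against 0, 0, 4 and 0 counts in WT. Catsper3, which lies 0.996 kb from Pitx1, had 0, 7, 0 and 5 counts in KO, against 0 in each WT library. Both were too low to test and are named after their values were seen.

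**Figure D5:**
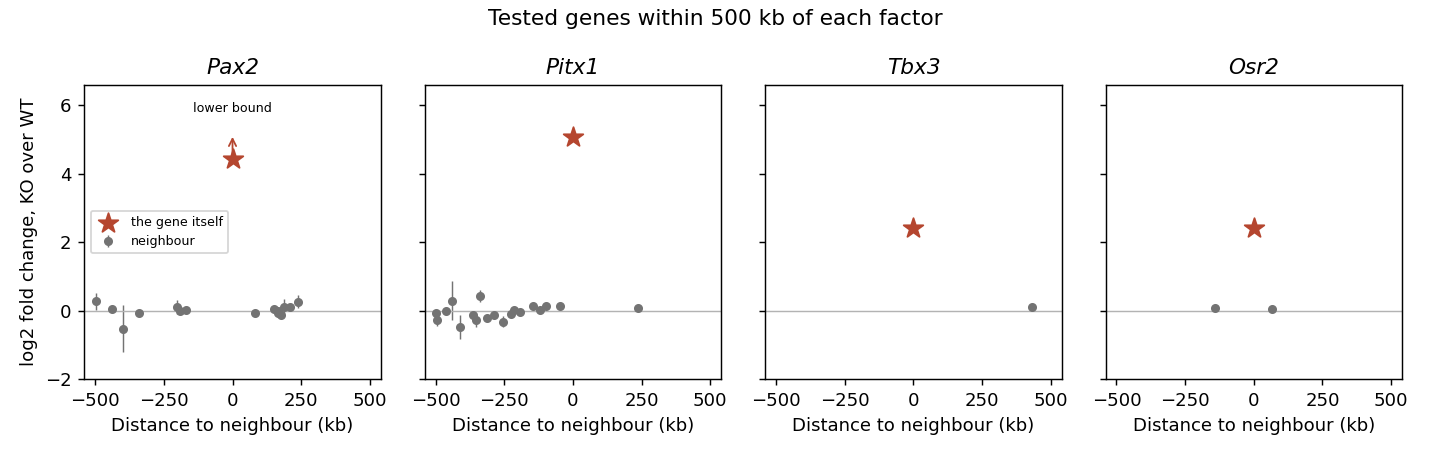
Log2 fold change, KO over WT (vertical axis), of tested genes within 500 kb of each factor against their distance from it in kb (horizontal axis, 1 panel per factor; points with SE bars are neighbours, stars the factor). The Pax2 star stands at 4.44, the log2 of its lower bound, and the neighbours lie between -0.53 and 0.43.

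Markers of the cells in and around the colon epithelium were set beside the 4 genes. Of the 13 colonic epithelial markers 5 (38.5%) were higher and 0 lower in KO, beside 7.63% and 8.26% over all tested genes, with a median log2 fold change of 0.07 and a summed level of 17344 to 18123 CPM in KO, against 15694 to 16729 CPM in WT. Car1, a carbonic anhydrase of colonocytes, averaged 1729.9 ± 49.2 CPM in KO, against 888 ± 97.0 CPM in WT (log2 fold change 0.96 ± 0.06 SE), and Krt20, a keratin of surface cells, 70.7 ± 4.94 CPM in KO, against 41.7 ± 2.85 CPM in WT (0.76 ± 0.06 SE; SD, n = 4 each; edgeR adjusted p = 1.4e-06 for Car1 and 6.3e-06 for Krt20). Cdx2 rose by 0.33 ± 0.04 (SE) on the log2 scale (edgeR adjusted p = 2.4e-04). Their part in the levels of the 4 factors was not tested.

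Mesenchyme is a tissue where Pitx1, Tbx3 and Osr2 are known to be expressed. Of 14 fibroblast markers 2 were tested and 0 were called (0 at an unadjusted p under 0.05, 0 by DESeq2 and 0 by limma-voom). The shares over all tested genes were 15.9% called, 28.7% at an unadjusted p under 0.05, 18.9% by DESeq2 and 15.3% by limma-voom. With 2 tested genes, nothing is read from the count of calls. Col1a2, Dcn, Lum, Thy1 and Foxf1 had 0 counts in all 8 libraries, and the list summed to 5.94 to 7.78 CPM in KO, against 4.26 to 6.88 CPM in WT. Pdgfrb made up most of it, at 6.16 ± 0.518 CPM in KO, against 5.28 ± 1.08 CPM in WT (SD, n = 4 each), and Vim had 4, 34, 10 and 5 counts in KO, against 0, 13, 12 and 15 counts in WT. Of 6 smooth muscle markers, Cnn1 had 0 counts throughout and the list summed to 0.413 to 0.709 CPM in KO, against 0.162 to 0.623 CPM in WT. In that list 0 of 1 tested genes were called, beside 15.9% over all tested genes (0 also at an unadjusted p under 0.05, by DESeq2 and by limma-voom). Acta2 had at most 16 and Myh11 at most 18 counts in any library.

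Renal and urogenital epithelium, where Pax2 is known, was represented by 10 markers, of which 6 were tested, 1 (16.7%) was higher, namely Pax8, and 0 were lower, beside 7.63% and 8.26% over all tested genes. Umod, Lrp2 and Upk2 had 0 counts in all libraries, and the list summed to 126 to 136 CPM in KO, against 117 to 128 CPM in WT. The 6 endothelial markers had 0 of 1 tested genes called, beside 15.9% over all tested genes (0 also at an unadjusted edgeR p under 0.05, by DESeq2 and by limma-voom). Emcn was at 0 throughout, and Vwf was at 3.55 ± 0.509 CPM in KO, against 3.88 ± 0.599 CPM in WT. The endothelial list summed to 3.00 to 5.86 CPM in KO, against 3.17 to 4.68 CPM in WT. None of 6 neural and glial markers passed the low-count filter. Sox10, S100b and Ncam1 were at 0 throughout, Snap25 and Tubb3 had at most 12 and 10 counts in any library, and the list summed to 0 to 0.309 CPM in KO, against 0 to 0.240 CPM in WT. Of 8 immune markers 3 were tested and 1 (33.3%), Cd68, was lower, beside 8.26% over all tested genes, at 31.0 ± 2.47 CPM in KO, against 38.4 ± 5.56 CPM in WT (edgeR adjusted p = 0.0399), a call that ended without any 1 of KO replicates 5, 7 and 8 or WT replicates 13, 14 and 16 (edgeR adjusted p = 0.0804 to 0.128). Cd3e was at 0 throughout, and the immune list summed to 29.5 to 45.1 CPM in KO, against 31.6 to 44.0 CPM in WT. The highest KO sums of these endothelial, neural and immune lists were those of KO replicate 6, where Lyz2, a lysozyme of myeloid and lung cells, had 480 counts, Cdh5 30 and Pecam1 20, with 0 in every other KO library. Without KO replicate 6 the KO sums were 3.00 to 3.62 CPM for the endothelial, 0 to 0.0861 CPM for the neural and 29.5 to 33.96 CPM for the immune list. The sums without that library were 126 to 131 CPM for the renal and 5.94 to 6.98 CPM for the fibroblast list. The part of these other cells in the levels of the 4 factors was not tested.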

How the data were processed

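Stranded mRNA libraries were made from 4 KO and 4 WT organoid samples, per the labels' protocols. The authors deposited a whole-number count for each gene and library, without normalization. GRCm38 and the tools HTSeq, Bowtie2, TopHat and TopHat2 are named, per the submitters' processing notes, without version or role. The strand setting of the counting is not stated there. The authors' TPM values served to compare genes, and the authors' FPKM values were left unused.

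Counts were filtered with edgeR 4.0.16 (filterByExpr), scaled by TMM and tested with its quasi-likelihood test in R 4.3.3. DESeq2 1.42.0 and limma-voom (limma 3.58.1) were alternatives, with other filters and scalings, and each library left out in turn. Tested on simulated data for KO against WT with 14790 genes, the test found 52% of genes made 1.25-fold different, 74% of those made 1.5-fold, 88% of those made 2-fold and 98% of those made 3-fold different, with 11 false calls. The simulation altered 50 genes at each fold, far fewer than the 2374 called in the data. It took its spread from these libraries, so it does not cover differences between mice.

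The 4 genes and all gene lists were chosen with earlier results of these data known, and no gene list gives independent support. Genes named are the 4 factors, called paralogs, up to 3 called genes of any other list by smallest adjusted p (or the 2 highest where none was called), up to 5 other factors in each direction, the nearest tested neighbours and the 3 closest genes by library pattern. Other names are said to be chosen afterwards or are uncalled or zero-count genes of a list. A few genes are not reported here and are left out of the lists, gene counts by count limits and rankings. Gene positions are RefSeq GRCm38.p6.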

Additional observations from a re-analysis of the deposited data

Results flagged for a closer look

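Within groups of 4 libraries, 87 groups of 47 named genes were examined for 1 library set apart from the rest by Dixon's test, and 5 were. Chance sets apart about 1 in 20 groups. Tbx3 was at 4.45 CPM in KO replicate 5, with the other KO libraries at 2.83 to 3.10 CPM. Cdh5, an endothelial cadherin, was at 0.619 CPM in KO replicate 6 and at 0 in the other 3 KO libraries and in all WT libraries. Acta2 was at 0.384 CPM in WT replicate 13, with the other WT libraries at 0.128 to 0.162 CPM. Foxd2 was at 21.8 CPM in WT replicate 16, with the others at 27.3 to 28.2 CPM. Snap25, a neuronal vesicle protein, was at 0.248 CPM in KO replicate 6 and at 0 in the other 3 KO libraries and in all WT libraries.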

How the results depend on the processing

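No paired analysis was possible because KO and WT libraries share no replicate number. Among 39 other named genes, under every alternative that gave a value, 563 results kept their direction and side of the threshold, 45 fell short of it and 8 changed sign in genes that were not called: Acta2 with library totals alone (0.0012), without KO replicate 8 (0.41) and without WT replicate 13 (0.45; lowest with a library left out -0.29), Slf2 without WT replicate 15 (0.022; lowest -0.11), Vim without KO replicate 6 (-0.71) and WT replicate 13 (-0.094; highest 0.66), and Vps13b without KO replicate 7 (-0.014) and WT replicate 14 (-0.033; highest 0.12). St3gal5, Rab5a-ps, Acta2 and Vim were too low to test when 1 CPM in 4 libraries was required, and Acta2 and Vim had no result with counts halved and no adjusted p from DESeq2.

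At an adjusted p of 0.01, 562 genes were higher and 597 lower, with 0 higher paralogs, 1 higher and 0 lower Pax2 partners, 0 higher limb and palate genes, 3 lower Polycomb genes, 0 lower immune markers, 0 higher renal markers, and 1 higher and 3 lower other factors. Without the low-count filter there were 0 higher paralogs, 1 higher and 0 lower partners, 0 higher and 1 lower limb and palate genes, 0 lower immune and 0 higher renal markers, and 1 higher other factor. limma-voom called 0 lower partners and 0 lower immune markers. DESeq2, and edgeR with 1 CPM in 4 libraries, called 1 lower neighbour, and DESeq2 called 5 higher other factors. The limits of 60 and 10 counts left 0 genes near absent in WT.

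The fitted log2 fold change of Pax2, 9.08, depends on the prior count and is no bound. It was 7.02 with limma-voom, 8.09 with counts halved and 5.12 with a prior count of 2, where Pitx1 was at 3.92 against 5.09.

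With each library left out in turn, 696 to 1386 genes were higher and 724 to 1404 lower. Higher genes numbered 0 to 1 paralogs, 1 to 2 partners, 0 to 1 limb and palate genes, 1 to 2 targets, 0 to 1 Polycomb genes, 4 to 6 colonic markers, 0 to 1 renal markers, 0 to 1 neighbours and 1 to 4 other factors. Lower genes numbered 0 to 1 partners, 0 to 1 limb and palate genes, 3 to 6 Polycomb genes, 0 to 1 immune markers, 0 to 2 neighbours and 4 to 8 other factors. The log2 fold change was 8.96 to 9.19 for Pax2, 4.65 to 8.63 for Pitx1 (8.63 without WT replicate 16, which leaves no WT read), 2.26 to 2.51 for Tbx3 and 2.13 to 3.00 for Osr2. For Pax2 and Pitx1 depth is a limit, since a WT count of 0 allows 3 counts per library.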
